A study of Mus musculus with 12 samples.

Results

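Mitochondrial ribosomal proteins are the nuclear-encoded proteins of the ribosome that works inside mitochondria. Their genes were taken as every probe set whose only gene symbol began with Mrpl (large subunit) or Mrps (small subunit) followed by a number, keeping the probe set of highest mean where a symbol had several. Of 14860 genes that had a probe set of their own on the mouse array, 68 met this rule, 43 named Mrpl and 25 named Mrps. By the present assignment of the proteins, 45 belong to the large subunit, which includes Mrps18a and Mrps30 in spite of their names, and 22 to the small subunit. Mrps36 belongs to neither and is now known as a component of the alpha-ketoglutarate dehydrogenase complex. Among the subunit proteins, 40 have a bacterial counterpart and 27 are specific to mitochondria. Another 3 probe sets listed an Mrpl or Mrps gene together with a different gene and were left out.

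The mitochondrial ribosome translates the few messages encoded by mitochondrial DNA, all of which give subunits of the respiratory chain and the ATP synthase. All of its proteins are encoded in the nucleus, made by cytosolic ribosomes and imported, then assembled with ribosomal RNA transcribed inside the organelle. The small subunit decodes the message, the large subunit forms peptide bonds and passes the chain to the inner membrane. Dividing blood progenitors and leukaemia cells, including acute myeloid leukaemia cells, are known to depend on mitochondrial translation.

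The 12 arrays measured RNA from primary cultures of bone marrow progenitors of C57B/6 mice, labelled female and 12 weeks old, that had been treated with 5-FU before the marrow was taken. Every culture had been transduced with MSCV retroviral constructs, overexpressed Hoxa9, a homeobox transcription factor that drives leukaemia in mice, and was grown in DMEM with FCS, IL3, SCF and IL6. There were 5 groups. In MIG (3 arrays) wild-type cells carried Hoxa9 and the MIG vector, and in KO (3 arrays) cells of miR-155 knockout mice carried the same. In miR-155 (3 arrays) wild-type cells overexpressed miR-155 beside Hoxa9. In MIY (2 arrays) wild-type cells carried Hoxa9 and the MIY vector, and in Meis1 (1 array, whose title also carries "3w") they overexpressed Meis1 beside Hoxa9. Meis1 is a homeobox cofactor that speeds Hoxa9-driven leukaemia. The series text describes an empty MIY vector as the control of miR-155 and states independent experiments for each condition, but the sample labels do not say whether arrays of a group came from separate mice, so p-values measure the spread between these arrays. Values are log2 expression levels after RMA, which brings the arrays to a common distribution. Their precision is limited by the number of arrays. These are bulk cultures, so fewer cells of a type and less RNA per cell cannot be told apart.

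Meis1 was at 12.11 on the Meis1 array and between 6.74 and 8.10 on the other arrays, and Hoxa9 lay between 13.07 and 13.41 on all 12, so both overexpressed genes were high where the labels place them. The leukocyte gene Ptprc was between 10.49 and 11.16 on every array. The MIG, miR-155 and KO arrays correlated with each other at 0.981 to 0.991 over all probe sets, the MIY arrays with these at no more than 0.966, and the Meis1 array with these at 0.962 to 0.971. Against the female label, the Y-linked gene Eif2s3y was at 9.23 and 9.31 in MIY, at 8.24 with Meis1, and at 2.48 or less on the other 9 arrays. The Meis1 array also had lower medians of the marker lists of neutrophils (7.81 against 11.77 in MIG), macrophages (6.43 against 11.04), eosinophils (7.13 against 10.11) and mast cells and basophils (6.42 against 9.59). The macrophage gene Adgre1 was an exception, at 10.77 on the Meis1 array against 9.88 to 10.01 in MIG. On both MIY arrays most probe sets read lower than in MIG: over the 16015 with a gene symbol, the median of the differences from the MIG mean was -0.22 and -0.23 on the log2 scale, while on the other arrays it was within 0.05 of 0. The medians of the arrays themselves lay closer, at 6.35 and 6.36 in MIY and 6.44 to 6.48 in MIG, and 6.33 on the Meis1 array. For this reason every difference is given as deposited and after removing the median difference of all tested probe sets. The part of sex, cell makeup or the handling of these arrays in any result was not tested, and for both MIY and Meis1 it cannot be told apart from the group.

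Most members were well within the measured range. Their mean over the 12 arrays had a median of 8.49, against 6.81 for all tested probe sets. The probe sets with the lowest means were those of Mrpl48 at 5.06, Mrpl21 at 5.33 and Mrpl51 at 6.74, and those with the highest were Mrpl39 at 9.78, Mrpl19 at 9.99 and Mrps15 at 10.46. Levels of different probe sets depend on the probes and are not compared between genes. The arrays of a group lay close together, with a median SD of 0.08 over the members in MIG, 0.09 in miR-155, 0.10 in KO and 0.14 in MIY. Mrpl48, the only member with more than one probe set, was the noisiest in MIG, at 4.83, 4.97 and 5.94.

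The arrays that stood apart for the members were those of Meis1 and MIY. On the Meis1 array 41 of the 68 members had their highest value of the 12 arrays (60.3%, against 21.2% of all tested probe sets), and 53 had their lowest value on an MIY array (77.9%, against 57.2%). After each array's median difference from the MIG mean was removed, these counts were 36 on the Meis1 array (52.9%, against 16.4%) and 38 on an MIY array (55.9%, against 34.6%). The median member lay 0.24 above the MIG mean on the Meis1 array, where the median of all probe sets lay 0.01 above it. The MIY arrays differed from each other: on the first the median member lay 0.22 below the MIG mean, the same as all probe sets, and on the second 0.37 below it, against 0.23. Of the members, 57 were lower on the second MIY array than on the first (83.8%, against 50.4% of all probe sets).

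**Figure D1:**
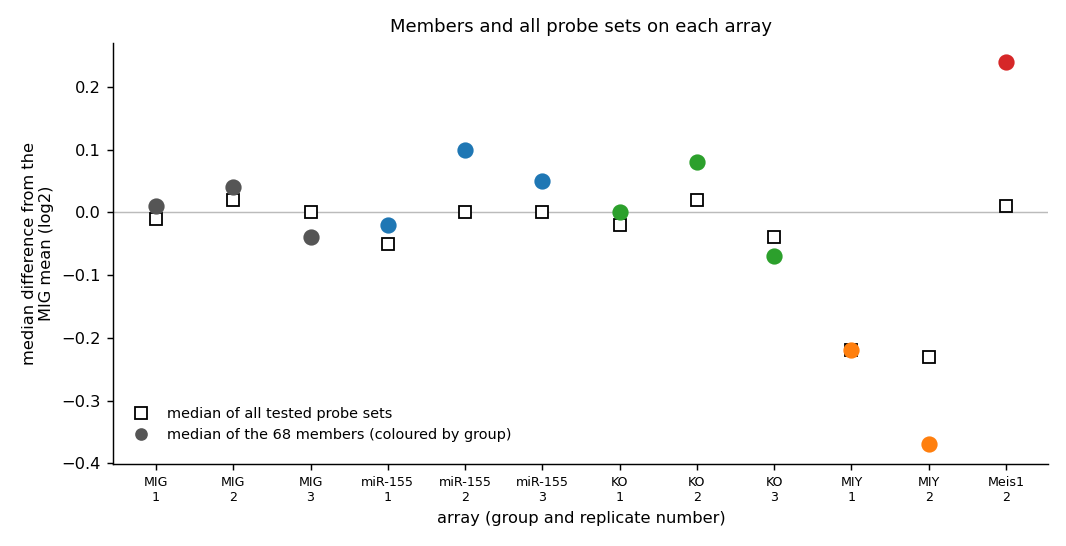
Median log2 difference from the MIG mean on each of the 12 arrays, for the 68 members (filled circles, coloured by group) and for all tested probe sets (open squares). The Meis1 array has the members at 0.24 with all probe sets at 0.01, and both MIY arrays have all probe sets near -0.22.

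**Figure D2:**
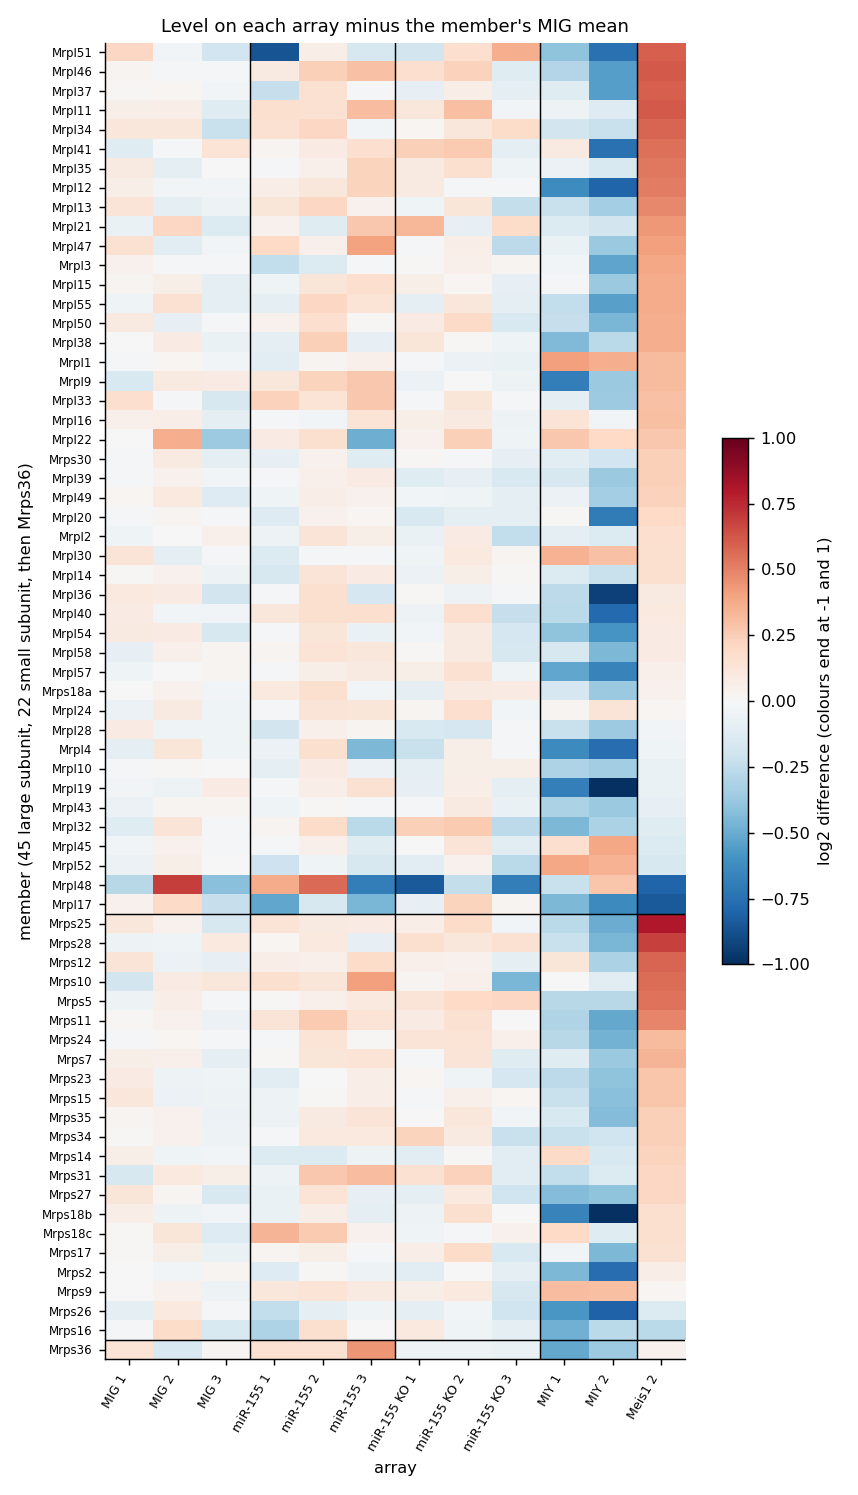
Level of each member on each array minus that member's MIG mean (log2), large-subunit members above, small-subunit members below and Mrps36 last, each ordered by the Meis1 array. On the Meis1 array 56 of 68 rows are above the MIG mean, and most rows are below it on the MIY arrays, where 11 have a higher mean than MIG, among them the 5 that passed as higher, Mrpl1, Mrpl30, Mrpl45, Mrpl52 and Mrps9.

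Promoter windows are printed for 5 members that moved between these groups. Mrps25 had the largest gain with Meis1, and Mrpl12 was higher with Meis1 and lower in MIY. Mrps18b was lower in MIY, Mrpl1 higher with Meis1 and in MIY, and Mrpl17 lower with Meis1. Mrps25 and Mrpl17 also passed as lower in MIY than in MIG as deposited, at -0.38 and -0.55. With the median removed, at -0.16 and -0.32, they did not. Each window holds the 250 bases before and 50 bases after the RefSeq gene start, read 5′ to 3′ on the gene's strand, from the mouse GRCm38.p6 assembly. The windows are chr6:92183974-92184273 on the minus strand for Mrps25, chr11:120484387-120484686 on the plus strand for Mrpl12, chr17:35916391-35916690 on the minus strand for Mrps18b, chr5:96209865-96210164 on the plus strand for Mrpl1 and chr7:105811038-105811337 on the minus strand for Mrpl17. Capitals mark matches, on either strand, to the motifs of NRF1 (GCGCA, any base, then GCGC), ETS factors (CCGGAAG), the E-box (CACGTG), YY1 (AAGATGGCG) and the GC box (GGGCGG).
Mrps25: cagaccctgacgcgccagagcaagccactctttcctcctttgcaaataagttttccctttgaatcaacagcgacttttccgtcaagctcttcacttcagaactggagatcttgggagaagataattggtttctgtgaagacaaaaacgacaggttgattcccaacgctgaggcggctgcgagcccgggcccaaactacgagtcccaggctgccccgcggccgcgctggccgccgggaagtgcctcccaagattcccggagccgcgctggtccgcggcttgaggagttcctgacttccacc
Mrpl12: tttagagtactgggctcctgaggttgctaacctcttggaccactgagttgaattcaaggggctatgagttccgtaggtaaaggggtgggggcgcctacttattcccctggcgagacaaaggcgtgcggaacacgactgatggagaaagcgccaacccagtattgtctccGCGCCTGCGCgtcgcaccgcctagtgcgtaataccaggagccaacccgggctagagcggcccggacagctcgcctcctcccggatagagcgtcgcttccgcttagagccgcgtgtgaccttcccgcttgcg
Mrps18b: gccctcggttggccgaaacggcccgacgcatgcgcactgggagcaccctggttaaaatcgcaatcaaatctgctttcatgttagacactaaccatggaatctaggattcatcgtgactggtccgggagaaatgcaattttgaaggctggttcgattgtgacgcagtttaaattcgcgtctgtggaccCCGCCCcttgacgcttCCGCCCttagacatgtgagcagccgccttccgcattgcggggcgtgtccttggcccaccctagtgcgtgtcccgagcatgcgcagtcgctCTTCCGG
Mrpl1: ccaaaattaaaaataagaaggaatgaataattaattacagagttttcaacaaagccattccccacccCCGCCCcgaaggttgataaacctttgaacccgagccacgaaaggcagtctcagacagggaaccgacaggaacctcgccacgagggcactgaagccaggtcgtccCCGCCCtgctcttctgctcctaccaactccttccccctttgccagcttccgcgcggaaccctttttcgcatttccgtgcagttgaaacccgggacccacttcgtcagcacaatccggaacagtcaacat
Mrpl17: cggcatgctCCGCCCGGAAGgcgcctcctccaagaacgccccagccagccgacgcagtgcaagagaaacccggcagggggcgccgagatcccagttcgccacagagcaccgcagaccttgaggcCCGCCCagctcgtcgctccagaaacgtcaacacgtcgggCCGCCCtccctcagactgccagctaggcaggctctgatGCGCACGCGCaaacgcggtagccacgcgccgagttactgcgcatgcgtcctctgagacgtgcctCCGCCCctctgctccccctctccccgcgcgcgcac

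NRF1, the ETS factor GABPA and YY1 are known regulators of nuclear genes for mitochondrial proteins, and Myc binds E-boxes. A window was found in RefSeq for 59 of the 68 members, and none for Mrpl4, Mrpl13, Mrpl15, Mrpl19, Mrpl38, Mrpl54, Mrps28, Mrps34 and Mrps35. The ETS motif was in a window of 20 of the 59 (33.9%), against 9.93% of the 27025 genes in the RefSeq promoter table. The NRF1 motif was in 11 (18.6%, against 5.19%), the YY1 motif in 7 (11.9%, against 1.64%), the GC box in 28 (47.5%, against 38.2%) and the E-box in 5 (8.47%, against 8.09%). The genes of that table were not matched to the members by level or by presence on the array, and no share was tested. In the windows shown, Mrpl12 and Mrpl17 each held 1 NRF1 match, Mrps18b and Mrpl17 each held 1 ETS match, and Mrps25 held none of the motifs searched. In the Mrpl17 window the ETS match overlaps a GC box. These matches describe letters in the windows and are not sites of binding.

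The first question was whether these genes differed with the level of miR-155. miR-155 is a microRNA that blood cells raise on activation; it pairs with messages through its seed and lowers them. The mature strand that carries most of its activity is printed because the miR-155 and KO groups differ in it, with the seed, bases 2 to 8, in capitals, from RefSeq at chr16:84714143-84714165 on the plus strand of GRCm38.p6.
mmu-miR-155-5p: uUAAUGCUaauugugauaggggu

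No member passed the test in any of the comparisons among MIG, miR-155 and KO, on either scale (limma, Benjamini-Hochberg over all tested probe sets, adjusted p threshold 0.05). Of all tested probe sets, 0.612% rose and 2.68% fell in miR-155 against MIG, 1.09% rose and 2.98% fell in miR-155 against KO, and 0.0187% rose and 0.0125% fell in KO against MIG. After the median was removed these shares were 0.656% and 2.52%, 1.07% and 3.01%, and 0.0187% and 0.0125%. In either direction 3.29%, 4.06% and 0.0312% passed as deposited, and 3.18%, 4.08% and 0.0312% with the median removed. The unadjusted p was under 0.05 for 3 members in miR-155 against MIG, 5 in miR-155 against KO and 1 in KO against MIG as deposited, and for 4, 5 and 1 with the median removed. Of all 16015 tested probe sets the same held for 2457, 2562 and 774 as deposited, and for 2458, 2561 and 774 with the median removed. The median member differed by 0.04, 0.03 and 0.00 in these comparisons as deposited, and by 0.06, 0.03 and 0.02 with the median of all probe sets removed. In miR-155 against MIG the 95% interval of the difference lay within 0.5 of 0 on the log2 scale for 62 of the 68 members, and in KO against MIG for 64. The comparisons share arrays, so they are not separate evidence.

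Mrpl17, counterpart of bacterial L17 beside the exit of the peptide tunnel, had the smallest p. It was at 7.40, 7.67 and 7.82 in MIG, 7.55, 7.66 and 7.85 in KO and 7.11, 7.17 and 7.47 in miR-155. The miR-155 arrays were low, with one of them above the lowest MIG array and all of them below the KO arrays. Its difference was -0.38 from MIG (SE 0.13, interval -0.68 to -0.08, adjusted p = 0.191) and -0.43 from KO (SE 0.13, interval -0.73 to -0.14, adjusted p = 0.124), neither of which passed.

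Mrps36, the dehydrogenase component, leaned the other way, at 7.57, 7.75 and 7.86 in MIG, 7.65, 7.67 and 7.67 in KO and 7.87, 7.87 and 8.16 in miR-155. All miR-155 arrays were above those of both other groups. The differences of 0.24 from MIG (adjusted p = 0.285) and 0.30 from KO (adjusted p = 0.154) did not pass. Mrps11, a protein of the small subunit's platform, and Mrpl33 differed from MIG by 0.18 and 0.22 (adjusted p = 0.316 and 0.342). Against KO, Mrps10 differed by 0.35 and Mrpl9 by 0.24 (adjusted p = 0.262 for each).

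In KO against MIG the smallest p belonged to Mrps5, a small-subunit protein beside the entry of the message, at 8.36, 8.39 and 8.48 in MIG and 8.54, 8.61 and 8.62 in KO. Its groups did not overlap, but the difference of 0.18 (SE 0.06) had an unadjusted p of 0.0149 and an adjusted p of 0.993. Mrpl39 differed by -0.12, Mrps28 by 0.13 and Mrpl48 by -0.59, with adjusted p = 0.996 for each. The arrays of the compared groups did not overlap for 10 members in miR-155 against MIG, 5 in KO against MIG and 10 in miR-155 against KO, where the same held for 25.1%, 14.8% and 24.5% of all tested probe sets.

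The second question was what the addition of Meis1 to Hoxa9 did. With 1 Meis1 array the fit takes that array to vary like the other groups, so each call rests on that assumption. Of the 68 members 13 rose and 1 fell in Meis1 against MIG, where 5.97% of all tested probe sets rose and 9.39% fell. With the median removed 12 rose and 1 fell, against 5.71% and 9.65%. In either direction 15.4% of all probe sets passed on each scale, and the Meis1 array lay outside the range of the MIG arrays for 59 members and for 72.5% of all probe sets. Positive differences were found for 56 members, and the median difference was 0.24 as deposited and 0.23 with the median removed. All tested probe sets were also split evenly by mean level into classes 1 (lowest) to 4 (highest). As deposited, 10 of 36 members rose in class 3, where 7.67% of its probe sets did. In class 4, 3 of 29 rose, where 11.2% did, so the excess of risers lay in class 3. None of the other members rose. The median member was at 0.29 in class 3 and 0.16 in class 4, against -0.02 and 0.04 for all probe sets there. Neither the share of risers nor the median was tested as a set.

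Of the small subunit, 5 of 22 members rose and none fell. Mrps25, a mitochondria-specific protein, was at 7.84, 8.04 and 8.11 in MIG and 8.80 on the Meis1 array. No other array of the study exceeded 8.18. The difference was 0.81 (SE 0.13, 1.75-fold, adjusted p = 0.00239). Mrps28 was at 8.08, 8.09 and 8.23 in MIG and 8.81 with Meis1, which is 0.67 higher (SE 0.12, 1.59-fold, adjusted p = 0.00327). Mrps5 was at 8.36, 8.39 and 8.48 in MIG and 8.95 with Meis1, which is 0.54 higher (SE 0.09, adjusted p = 0.00217). For both genes the Meis1 array was above all 11 others. Mrps12, counterpart of the bacterial decoding protein S12, rose by 0.58 (adjusted p = 0.0334), and Mrps11 by 0.49 (adjusted p = 0.0133). Mrps7, Mrps35 and Mrps18b differed by 0.33, 0.24 and 0.17 and did not pass (adjusted p = 0.122, 0.253 and 0.618).

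Of the large subunit, 8 of 45 members rose and 1 fell as deposited. Mrpl12, the stalk protein that recruits translation factors, was at 9.42, 9.42 and 9.51 in MIG and 9.96 on the Meis1 array. All other arrays were at 9.67 or less. The difference was 0.51 (SE 0.10, 1.43-fold, adjusted p = 0.00854). Mrpl11, at the base of the same stalk, rose by 0.60 (adjusted p = 0.0143), and its MIG arrays were at 7.66, 7.84 and 7.85 against 8.39. Mrpl46 and Mrpl37, both specific to mitochondria, rose by 0.61 and 0.60 (adjusted p = 0.0213 and 0.0411). The bacterial-type proteins Mrpl34, Mrpl35 and Mrpl1 rose by 0.58, 0.53 and 0.33 (adjusted p = 0.0239, 0.0158 and 0.0346). Mrpl13 passed as deposited alone, at 0.48 with adjusted p = 0.0496, and had adjusted p = 0.0528 with the median removed. Mrpl15, Mrpl36 and Mrpl52 differed by 0.37, 0.09 and -0.16 and did not pass (adjusted p = 0.118, 0.852 and 0.465).

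Mrpl17 was the exception to this direction. It stood at 7.40, 7.67 and 7.82 in MIG and at 6.79 on the Meis1 array, the lowest value of the study, where the lowest MIY array was at 6.99. The difference was -0.84 (SE 0.19, 1.79-fold lower, adjusted p = 0.014). Mrpl48 differed by a like amount, -0.80, with an SE of 0.52 and adjusted p = 0.371, and its other probe set by 0.06. These probe sets also differed in sign in Meis1 against MIY, at -0.83 and 0.18, and in MIY against MIG, at 0.03 and -0.12, and passed nowhere.

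The MIG array left out changed the count: 12, 9 and 9 members passed without MIG replicate 1, 2 and 3, and 9 passed in every run, namely Mrps25, Mrps28, Mrps5, Mrps11, Mrpl11, Mrpl12, Mrpl34, Mrpl35 and Mrpl17. With the MIY arrays left out of the fit 18 passed, 17 of them higher, and all 14 of the main calls were among them. Over all tested probe sets 956 rose and 1504 fell in the main fit as deposited, and 1509 and 1998 without the MIY arrays. Without MIG replicate 1, 2 and 3 these were 755 and 1367, 620 and 1152, and 585 and 1221. Markers of mature myeloid cells moved with the Meis1 array: each of the 6 neutrophil markers had its lowest value of the 12 arrays there, the nearest to MIG being Lcn2, at 12.19 against 12.83 to 13.02, and none was near 0. Their part in the rise of the members was not tested.

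**Figure D3:**
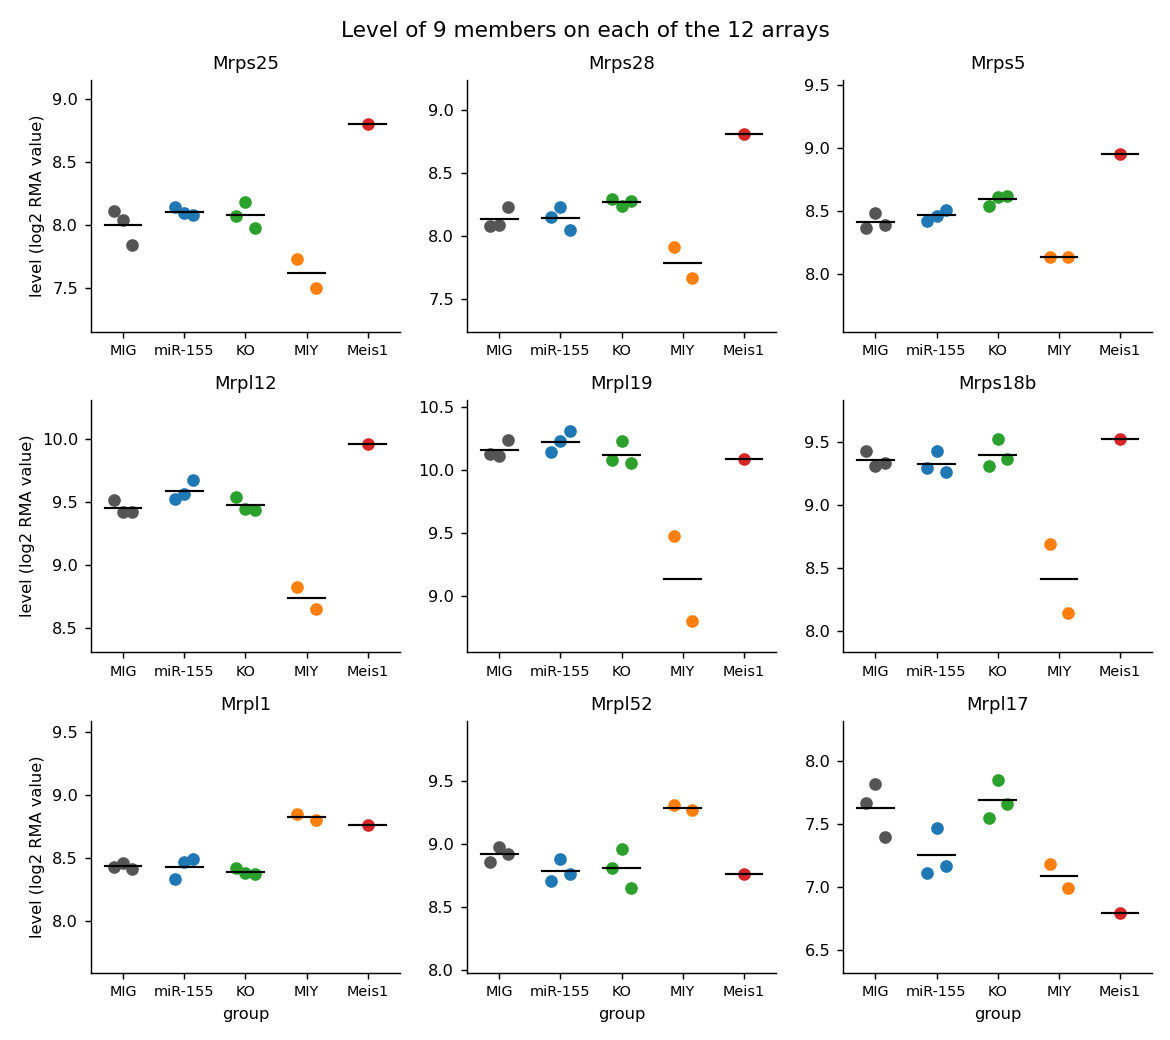
Log2 level of 9 members on each array (points, coloured by group) with the group mean (line); each panel spans the same 2 log2 units. Mrps25, Mrps28, Mrps5 and Mrpl12 are highest on the Meis1 array, Mrpl12, Mrpl19 and Mrps18b lowest on the MIY arrays, Mrpl1 and Mrpl52 highest on the MIY arrays, and Mrpl17 lowest on the Meis1 array.

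The third question was how the control vectors differed, since the miR-155 cultures can be set against either. In MIY against MIG 5 members rose and 32 fell as deposited, where 9.10% of all tested probe sets rose and 40.4% fell. With the median of -0.22 removed, 7 rose and 8 fell, where 19.2% rose and 18.3% fell. In either direction 49.5% of all probe sets passed as deposited and 37.5% with the median removed, and the arrays did not overlap for 48 members and 65.9% of all probe sets. The median member was at -0.29 as deposited and -0.07 with the median removed. Of the calls, 13 held on both scales, 24 as deposited alone and 2 (Mrpl16 and Mrpl24, both higher) with the median removed alone. Quantile normalization of the same values gave 6 higher and 14 lower, before and after removal of the median. Under it 3053 of all 16015 probe sets rose and 3269 fell before that removal, and 3159 and 3175 after it. As deposited 4 of 45 members rose and 19 fell in the large subunit, and 1 of 22 rose and 12 fell in the small. With the median removed these counts were 6 and 5 in the large and 1 and 3 in the small subunit.

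The members that fell on both scales were Mrpl19, Mrpl12, Mrpl4, Mrpl57 and Mrpl9 of the large subunit and Mrps18b, Mrps26 and Mrps2 of the small. Mrpl19, counterpart of a bacterial protein at the subunit interface, was at 10.11, 10.13 and 10.24 in MIG and at 9.48 and 8.80 in MIY. Both MIY arrays were below all others, and they differed from each other by more than the other groups' whole spread. The difference was -1.02 as deposited (SE 0.16, 2.03-fold lower, adjusted p = 0.000749) and -0.80 with the median removed (adjusted p = 0.00401). Mrps18b, a small-subunit protein counted here as specific to mitochondria, was at 9.31, 9.33 and 9.43 in MIG and 8.69 and 8.14 in MIY. Its difference was -0.94 as deposited and -0.72 with the median removed (adjusted p = 0.000535 and 0.00327).

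Mrpl12 was at 8.82 and 8.65 in MIY against 9.42 to 9.51 in MIG, with no overlap. It was lower by 0.72 as deposited (SE 0.08, 1.65-fold, difference -0.72, adjusted p = 0.000126) and its difference with the median removed was -0.50 (adjusted p = 0.00145). Mrpl4, which lines the peptide tunnel, and Mrps26 each differed by -0.69 as deposited and -0.47 with the median removed (adjusted p on that scale 0.0413 and 0.00558). Mrps2, Mrpl57 and Mrpl9 differed by -0.38, -0.37 and -0.31 with the median removed (adjusted p = 0.0111, 0.00602 and 0.0471). Mrps5 and Mrpl36, among the genes named in each comparison with MIY or Meis1, fell as deposited, at -0.28 and -0.59 (adjusted p = 0.00791 and 0.0178). With the median removed they did not pass, at -0.06 and -0.37. Mrps35 was alike, at -0.30 as deposited (adjusted p = 0.0295) and -0.07 with the median removed. Mrps7, Mrpl15, Mrps12 and Mrpl11 differed by -0.25, -0.20, -0.10 and -0.09 and passed on neither scale.

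A small set went the other way on both scales. Mrpl1, whose bacterial counterpart forms the mobile stalk beside the tRNA exit site, was at 8.41, 8.43 and 8.46 in MIG and at 8.85 and 8.80 in MIY. Both MIY arrays were above all MIG, miR-155 and KO arrays. It rose by 0.39 as deposited (SE 0.07, adjusted p = 0.00153) and by 0.61 with the median removed (adjusted p = 0.000179). Mrpl52 was at 8.86, 8.92 and 8.98 in MIG and 9.31 and 9.27 in MIY, and rose by 0.37 and 0.59 on the 2 scales (adjusted p = 0.00975 and 0.0012). Mrpl30 and Mrps9 each rose by 0.31 as deposited and by 0.54 and 0.53 with the median removed. Mrpl45, which holds the ribosome to the inner membrane, rose by 0.28 and 0.51 (adjusted p = 0.0321 and 0.00277).

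The second MIY array decided many of these calls. Without it 21 members passed as deposited and 15 with the median removed, 9 higher and 6 lower, and without the first MIY array 44 and 18 passed. The counts over all tested probe sets moved as well, from 1457 higher and 6464 lower as deposited to 1116 and 5428 without the second array and 1767 and 6062 without the first. The calls with the median removed that held whichever single array was left out were Mrpl12, Mrpl19, Mrpl57, Mrps18b and Mrps26 (lower) and Mrpl1, Mrpl30, Mrpl45, Mrpl52 and Mrps9 (higher). The interferon-induced gene Mx1 was at 9.31 and 8.95 on the MIY arrays and between 2.57 and 3.86 on the other 10. The mast cell and basophil marker list had a median of 6.53 in MIY and 9.59 in MIG, and all 6 of its genes fell. The macrophage list was mixed, with Adgre1 higher by 0.56 (adjusted p = 0.000167) and Fn1, Mrc1 and Cd68 lower, with differences of -4.22, -1.85 and -0.47 (adjusted p = 2.78e-08, 0.00517 and 0.00827), while Csf1r and Ctss did not pass as deposited. Their part in these differences was not tested.

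**Figure D4:**
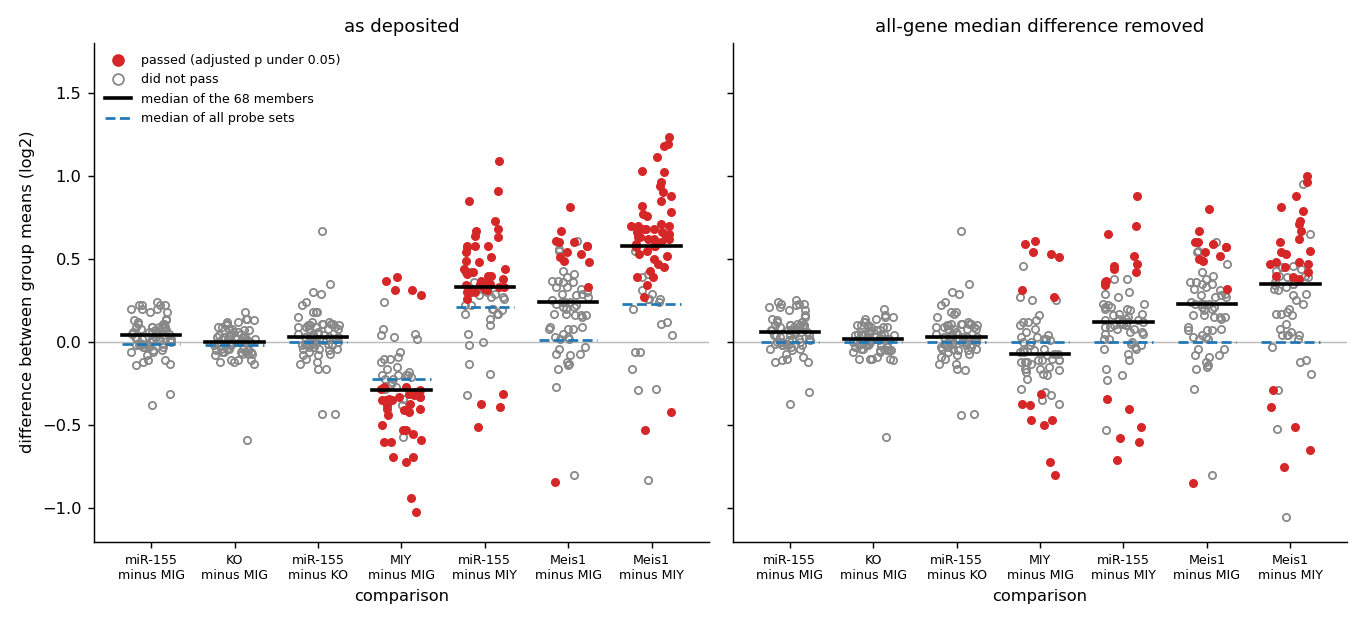
Difference between group means (log2) of each of the 68 members in 7 comparisons, as deposited (left) and with the median of all probe sets removed (right); filled red points passed the test, black lines are the members' median and dashed blue lines the median of all probe sets. As deposited the members' median is -0.29 in MIY against MIG and 0.24 in Meis1 against MIG, and with the median removed it is -0.07 and 0.23.

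The same MIY arrays set the result when miR-155 is compared with MIY, the control that the series text names. As deposited 38 members rose and 4 fell, where 38.5% of all tested probe sets rose and 9.85% fell. With the median of 0.21 removed, 11 rose and 6 fell, where 17.4% and 19.0% did. Quantile normalization gave 24 higher and 5 lower before and 20 higher and 5 lower after removal of the median. Under it 3440 of all tested probe sets rose and 2831 fell before that removal, and 3107 and 3068 after it. In the main fit 48.3% of all probe sets passed in either direction as deposited and 36.4% with the median removed. The arrays did not overlap for 52 members and 62.7% of all probe sets. The median member was at 0.33 as deposited and 0.12 with the median removed. Mrpl19, Mrps18b and Mrpl12 led the rise, with 1.09, 0.91 and 0.85 as deposited and 0.88, 0.70 and 0.65 with the median removed (adjusted p on that scale 0.00259, 0.00392 and 0.000344). Mrpl9, Mrps36 and Mrpl40 followed, with 0.52, 0.47 and 0.46 on that scale (adjusted p = 0.0047, 0.00911 and 0.0322).

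Mrpl52, Mrpl1, Mrpl30 and Mrpl45 fell on both scales, with differences of -0.71, -0.60, -0.58 and -0.51 with the median removed (adjusted p = 0.000437, 0.000206, 0.000812 and 0.00277). Mrps9 and Mrps14 passed with the median removed alone, at -0.40 and -0.34 (adjusted p = 0.00524 and 0.0248). Mrps5, Mrps7, Mrps35, Mrpl11 and Mrpl36 rose as deposited by 0.33, 0.34, 0.35, 0.30 and 0.58. With the median removed they did not pass, at 0.13, 0.13, 0.14, 0.09 and 0.38. Mrpl15 and Mrps12, at 0.28 and 0.20, passed on neither scale. Without the second MIY array the median member was at 0.25 as deposited and 0.05 with the median removed. When the fit held the miR-155 and MIY arrays alone, 24 members passed as deposited and 10 with the median removed. In that fit 4060 of all tested probe sets rose and 1022 fell as deposited, and 1395 and 1737 with the median removed.

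Meis1 against MIY gave the highest counts of the 7 comparisons, 47 higher and 2 lower as deposited, where 33.1% of all tested probe sets rose and 11.0% fell. With the median of 0.23 removed 22 rose and 5 fell, where 14.9% and 18.2% did. In either direction 44.1% of all probe sets passed as deposited and 33.1% with the median removed, and the arrays did not overlap for 66 members and 85.3% of all probe sets. This comparison uses 3 arrays and shares each of them with those above. Mrpl12 was at 9.96 on the Meis1 array and 8.82 and 8.65 in MIY, which gave the largest of the members' differences, 1.23 as deposited (SE 0.11, 2.35-fold, adjusted p = 3.81e-05, and 0.000137 with the median removed). Mrps25, at 8.80 against 7.73 and 7.50, followed with 1.19 and 0.96. Mrps18b, Mrpl46, Mrps28 and Mrpl19 differed by 0.88, 0.81, 0.79 and 0.73 with the median removed (adjusted p = 0.00637, 0.00423, 0.00118 and 0.0285). Mrpl51, a large-subunit protein specific to mitochondria, was at 7.44 against 6.44 and 6.09, and its difference of 1.18 passed as deposited (adjusted p = 0.0209) and not with the median removed (0.95, adjusted p = 0.06).

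Mrps5, Mrpl11 and Mrps12 differed by 0.60, 0.47 and 0.45 with the median removed, and the last of these passed as deposited alone (adjusted p = 0.00936, against 0.0629). Mrpl15, Mrps7, Mrps35 and Mrpl36 also passed as deposited alone, at 0.57, 0.58, 0.53 and 0.68. Mrpl52 and Mrpl45 fell on both scales, with differences of -0.53 and -0.42 as deposited. Mrps9, Mrpl30 and Mrpl1 passed with the median removed alone, at -0.51, -0.39 and -0.29. Without the second MIY array the median member was at 0.46 as deposited and 0.23 with the median removed. With the 3 arrays of these groups alone in the limma fit no member passed on either scale, 28 had an unadjusted p under 0.05 as deposited and 13 with the median removed. In that fit 0 of all 16015 probe sets passed as deposited and 1 rose and 30 fell with the median removed, so it says nothing particular of the members.

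**Figure D5:**
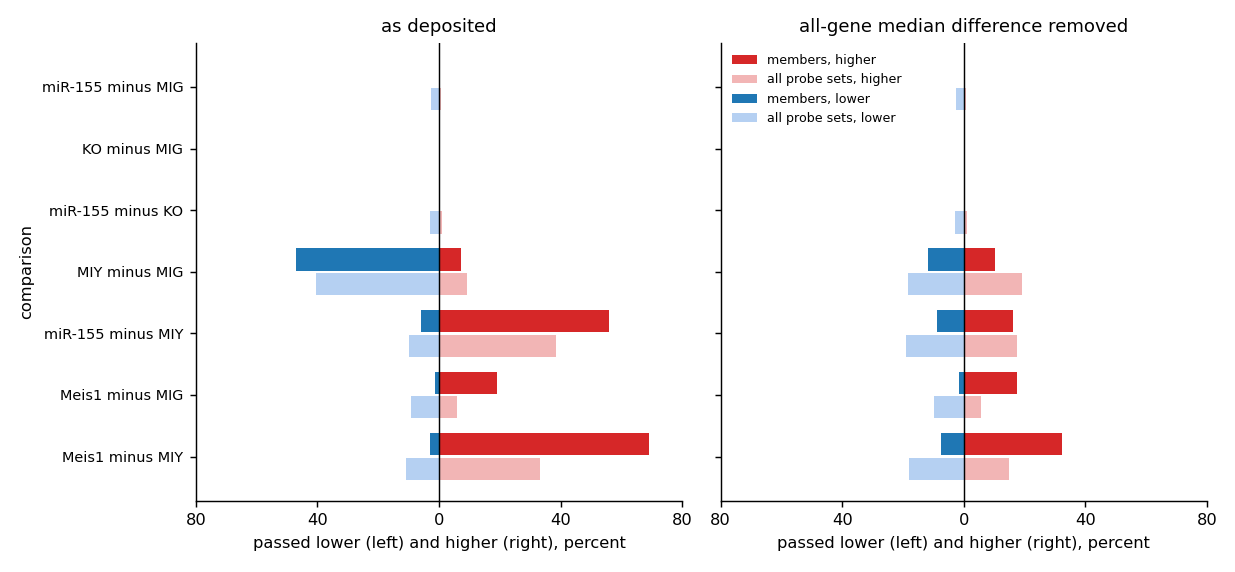
Share of the 68 members (dark bars) and of all 16015 tested probe sets (pale bars) that passed higher (right) or lower (left) in each comparison, in percent, as deposited and with the median of all probe sets removed. In Meis1 against MIG 12 members passed higher with the median removed, where 5.71% of all probe sets did. In MIY against MIG 7 passed higher and 8 lower on that scale, where 19.2% and 18.3% did. The shares of all probe sets are not matched to the levels of the members.

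The genes that work with the mitochondrial ribosome were counted in the same way. Of 3 measured ribosomal proteins with other names, Chchd1, Ptcd3 and Gadd45gip1, none passed in Meis1 against MIG, and their differences had a median of 0.41. Of 17 mitoribosome assembly factors 1 rose and 1 fell with Meis1: the GTPase Noa1 was 0.66 higher (adjusted p = 0.00332) and the helicase Ddx28 differed by -0.51 (adjusted p = 0.0244). Of 13 mitochondrial translation factors 2 rose, Taco1, an activator of Cox1 translation, by 0.45 and Mtfmt, which formylates the initiator tRNA, by 0.38 (adjusted p = 0.0382 and 0.0356). Of 10 genes for mitochondrial DNA and transcription 1 rose, the RNA-degrading enzyme Pnpt1, by 0.54 (adjusted p = 0.047). Over all tested probe sets 5.97% rose and 9.39% fell in Meis1 against MIG. Pnpt1 was higher still in MIY, at 9.55 and 9.30, against 9.18 on the Meis1 array and 8.56 to 8.74 in MIG. In MIY against MIG 1 assembly factor rose and 9 fell as deposited, and 3 rose and 3 fell with the median removed, where 9.10% and 40.4% of all tested probe sets did as deposited and 19.2% and 18.3% with the median removed. Those that fell on the latter scale were Eral1, Ddx28 and Mrm3, at -0.54, -0.53 and -0.60 on that scale. Of the translation factors none rose and 4 fell as deposited, and 2 rose and 1 fell with the median removed. Their median on the latter scale was 0.15. The gene that fell on it was the elongation factor Tsfm, at -0.33 (adjusted p = 0.00855). Of the genes for mitochondrial DNA and transcription 2 rose and 4 fell as deposited, and 2 rose and 1 fell with the median removed.

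Regulators of mitochondrial biogenesis were mixed. The coactivator gene Ppargc1a was at 3.83, 3.88 and 4.05 in MIG and 5.47 on the Meis1 array, 1.55 higher (adjusted p = 4.31e-05). Its MIG values are little above the 3.32 to 3.50 that the Y-linked gene Kdm5d read on the MIG, miR-155 and KO arrays, so the size of this difference is uncertain. Myc was at 12.07, 12.10 and 12.12 in MIG, 12.00 on the Meis1 array and 11.14 and 10.71 in MIY, and its difference in MIY was -1.17 as deposited and -0.95 with the median removed (adjusted p = 4.31e-05 and 0.000202). The coactivator Pprc1 differed by -1.16 and -0.93 there (adjusted p = 0.000188 and 0.000917). Of the 13 genes of this list 1 rose and 2 fell with Meis1, and 1 rose and 7 fell in MIY as deposited, 2 and 2 with the median removed, beside the same shares of all probe sets. Mxd1, a partner of Max that opposes Myc, and Nrip1 were those lower with Meis1, at -1.04 and -1.13 (adjusted p = 0.00762 and 0.0282). In MIY Mxd1 was higher, at 10.76 and 11.32 against 10.24, 10.40 and 10.48 in MIG.

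Genes of the cytosolic ribosome were set beside the members as the nearest like group. Of 14 cytosolic ribosomal proteins with a probe set of their own, none rose or fell in Meis1 against MIG, none had an unadjusted p under 0.05 and the median difference was 0.04, against 0.24 for the 68 members. Over all tested probe sets 5.97% rose and 9.39% fell there. The means of the 14 in MIG ran from 4.88 (Rpl31) to 12.53 (Rps9), with a median of 7.05. The SE of the difference was 0.49 for Rpl31 and 0.10 for Rps9, so a lack of calls says little for the noisiest. The difference between the lists was not tested. In MIY against MIG 4 of the 14 fell as deposited and 2 with the median removed, Rpl10a and Rps24, at -1.47 and -0.97. All 14 measured genes of cytosolic ribosome biogenesis fell in MIY as deposited, and 9 with the median removed, with a median of -0.49 on that scale, where 40.4% and 18.3% of all tested probe sets fell. Among them were Nop56, Nop2 and Rrp12, at -1.21, -0.80 and -0.64 (adjusted p = 0.00116, 0.00179 and 0.00292). With Meis1, Wdr12, Polr1a and Bop1 of this list rose by 0.72, 0.42 and 0.80 (adjusted p = 0.00601, 0.0173 and 0.0436), where 5.97% of all tested probe sets rose. All 14 genes of this list had positive differences with Meis1, with a median of 0.36, where 51.3% of all tested probe sets were positive. The share that rose over all tested probe sets there is the 5.97% given above. Of 6 proliferation genes the kinase gene Aurka alone passed with Meis1, rising by 0.44 (adjusted p = 0.0185), beside the same share. In miR-155 against MIG it rose by 0.37 (adjusted p = 0.0235), where 0.612% of all tested probe sets rose. All 6 proliferation genes were higher with Meis1 than in MIG, with a median difference of 0.40. The medians of these lists were not tested against that of the members.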

How the data were processed

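Biotin-labelled total RNA of 12 mouse cultures was measured on Affymetrix arrays. The authors deposited log2 values per probe set, made with RMA in Affymetrix Expression Console per the submitters' processing notes. No version of either is stated in the sources used here. Of 23332 probe sets, 14996 had 1 gene symbol in the platform annotation, 1019 several and 7317 none, and the 16015 with a symbol were tested. limma 3.58.1 (R 4.3.3) fitted group means over all 12 arrays with 7 residual and 3.06 prior degrees of freedom; p-values were adjusted by Benjamini-Hochberg over all tested probe sets. For the second scale the median difference of all tested probe sets was subtracted from every difference, with standard errors unchanged. The steps were tested on simulated data. Members, gene lists and tests were chosen with earlier results of these data known. Named members are the 6 highest and 6 lowest passing in each comparison, the 4 smallest p where fewer than 3 passed, and extremes of level. A fixed list of 10 was named in each comparison with MIY or Meis1. Alternatives were other normalizations, filters, controls and sample sets.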

Additional observations from a re-analysis of the deposited data

How the results depend on the processing

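The counts of members that passed were recomputed under other settings. In the comparisons among MIG, miR-155 and KO the count was 0 in each setting run. Shifting every array so that its median difference from the mean array was 0 gave 15 in MIY against MIG, 20 in miR-155 against MIY (14 higher, 6 lower) and 27 in Meis1 against MIY, in place of 37, 42 and 49 as deposited, and quantile normalization gave 20 in MIY against MIG; both settings remove the shift of the MIY arrays by construction. With the compared groups alone in the fit, miR-155 against MIY gave 24 as deposited and 10 with the median removed, in place of 17, and Meis1 against MIY gave 0 on both scales, from 3 arrays. With the mean of MIG and MIY as control of Meis1, 32 passed as deposited, in place of 14 against MIG. Of all probe sets 2742 rose and 1591 fell with that control, in place of 956 and 1504 against MIG. With the median removed Mrpl1 turned from -0.29 against MIY to 0.02 against that control (adjusted p = 0.912). With each array left out in turn, the count as deposited ran from 21 to 44 in MIY against MIG, from 23 to 45 in miR-155 against MIY, from 9 to 12 in Meis1 against MIG and from 34 to 47 in Meis1 against MIY, and with the median removed from 14 to 35 in Meis1 against MIY, all the lowest without MIY replicate 2 except those of Meis1 against MIG, which were without MIG replicate 2 or 3. Same-numbered arrays of MIG, miR-155 and KO correlated in their deviations at -0.067 to 0.164, over 0.1 in 4 of 9 pairs. Differently numbered arrays of these groups correlated at -0.146 to 0.114. Numbers were not taken as pairs in the main fit, and these values do not settle whether they are. A fit with the replicate block gave 36 members as deposited and 15 with the median removed in MIY against MIG, and 41 and 19 in miR-155 against MIY. It gave 10 and 10 in Meis1 against MIG and 42 and 27 in Meis1 against MIY. As deposited, all probe sets gave 1401 higher and 6239 lower, 5852 and 1502, 710 and 1643, and 4906 and 1939, in the same order. For named members, 2247 of the checks under other settings kept direction and side of the threshold, 36 newly passed, 104 no longer passed and 1 reversed, and without 1 array 983 kept them, 16 newly passed and 67 no longer passed. Settings added after seeing the data were the fits without the MIY or Meis1 arrays and the median over the probe sets of higher level. The single Meis1 array, the 2 MIY arrays and low signal for Mrpl48 and Mrpl21 limit precision.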
